A study of Mus musculus with 15 samples.

Results

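The sequences described are small RNAs of 25 to 30 nt from mouse foetal testes that the authors' annotation placed on transposable elements (TEs) of the classes LINE, LTR and SINE. They were divided at a fixed length into shorter sequences of 25 to 27 nt and longer sequences of 28 to 30 nt. Over the 6 libraries there were 9263947 distinct sequences of this kind, 4831700 of them shorter and 4432247 longer. They made up between 39.2% and 48.4% of the distinct sequences of a library.

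Small RNA was sequenced from whole E16.5 foetal testes, with 3 libraries from Tex15+/- controls and 3 from Tex15-/- foetuses, on a genetic background mixed from B6CBAF1/Crl and C57BL/6N. The controls were heterozygous and so carried 1 copy of the mutant allele too, and both groups carried the same single CRISPR allele, an insertion in exon 5 that brings in stop codons. RNA of 6 foetal testes was pooled for each library. Both germ cells and somatic cells contributed RNA, so fewer cells of a type and less RNA per cell cannot be told apart. The tables hold small RNA only, and the tissue was not checked against marker genes. The labels give 3 separate pools per genotype, and a p-value measures only the spread between these pools.

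The piRNA pathway of foetal male germ cells works through a pair of PIWI proteins. MILI, in the cytoplasm, binds the shorter piRNAs and cuts TE transcripts, and MIWI2 binds the longer piRNAs made in that process and enters the nucleus, where it directs DNA methylation to TEs. Primary piRNAs mostly begin with U, and a piRNA made by cutting opposite such a piRNA has an A at base 10 and overlaps its partner by 10 bases, which is known as the ping-pong signature. TEX15 is a nuclear protein of the MIWI2 pathway.

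The length alone stood for the PIWI partner here, since the RNA was not immunoprecipitated with either protein. Over the 3 classes together the lengths formed 1 broad peak, with no second mode that would mark 2 populations. In controls, 9.91% ± 0.14 (SD, n = 3) of the 25 to 30 nt TE reads had 25 nt, 17.3% ± 0.09 had 26 nt, 21.9% ± 0.45 had 27 nt, 21.6% ± 0.07 had 28 nt, 18.4% ± 0.23 had 29 nt and 10.9% ± 0.08 had 30 nt. In Tex15-/- libraries the same lengths held 10.1% ± 0.49, 18.1% ± 0.38, 22.1% ± 0.15, 21.4% ± 0.25, 17.8% ± 0.50 and 10.5% ± 0.40 (SD, n = 3). The limit between the classes therefore runs through the top of the peak, between the 2 most frequent lengths. Just outside the limits, TE reads of 24 nt came to 6.93% of the 25 to 30 nt reads in controls and 7.45% in the Tex15-/- libraries. Those of 31 nt came to 4.59% and 5.07%. The shares were larger for SINE reads, relative to the 25 to 30 nt SINE reads. At 24 nt they were 14.1% ± 0.38 in controls and 22.7% ± 3.37 in the Tex15-/- libraries. At 31 nt they were 6.24% ± 0.71 and 10.8% ± 2.36 (SD, n = 3 each). These SINE groups did not overlap at either length. Of the 31 nt SINE reads, 33.8% ± 6.09 and 17.98% ± 3.46 began with T (SD, n = 3 each). The sequences are called shorter and longer below, and no sequence was assigned to MILI or MIWI2.

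The most abundant sequences of each class and size show how the sizes relate to each other. They are written 5′ to 3′ as the authors' tables give them, with T for U, and the capitals mark base 1 and base 10. Sequences A and B are LINE sequences that begin at the same base and differ only in where they end, at 26 and 28 nt. C and D are another LINE pair and E and F an LTR pair of the same kind. G is the most abundant shorter LTR sequence and H the next, and I is the longer LTR sequence that follows E in abundance.

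A, shorter LINE: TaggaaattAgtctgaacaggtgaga
B, longer LINE: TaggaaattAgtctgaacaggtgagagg
C, shorter LINE: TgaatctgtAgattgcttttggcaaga
D, longer LINE: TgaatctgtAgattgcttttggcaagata
E, longer LTR: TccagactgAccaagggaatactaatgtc
F, shorter LTR: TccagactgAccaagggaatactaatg
G, shorter LTR: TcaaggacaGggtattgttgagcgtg
H, shorter LTR: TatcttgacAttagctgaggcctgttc
I, longer LTR: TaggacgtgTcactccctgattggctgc

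All 9 begin with T, and 7 of them have A at base 10. Each matches the GRCm38 genome at many places, with 5892 perfect matches for A, 18310 for D, 872 for E and 1660 for G, so none has a single genomic position. The authors listed A and B under L1Md_T and related names of young mouse L1 elements, C and D under L1Md_F2 and other L1 names, E to H under IAPEz-int, the internal part of an intracisternal A particle, and I under IAPLTR names, the long terminal repeats of the same element.

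In RPM, reads scaled to the total of 18 to 32 nt reads of the library, A was at 759, 1062 and 832 in the 3 control libraries and at 1962, 468 and 1682 in the Tex15-/- libraries. B, the longer partner, was at 366, 512 and 442 in controls and at 816, 341 and 730 in the Tex15-/- libraries. In both the Tex15-/- libraries spread on either side of the controls, and A was more abundant than B in each of the 6 libraries. The next shorter LINE sequence in abundance, not printed above, is the 27 nt form with the same 5′ end. It was at 316, 488 and 438 in controls and at 686, 251 and 663 in the Tex15-/- libraries. In the other pairs the order was turned, with the longer form ahead. D was at 581, 632 and 555 in controls and at 579, 316 and 590 in the Tex15-/- libraries, while its shorter partner C stayed between 20.2 and 51.2 in all 6. E ranged from 437 to 1407 over the 6 libraries, and its partner F from 8.74 to 23.1. F was higher in every Tex15-/- library (19.01, 23.1 and 19.5) than in every control (11.97, 13.7 and 8.74), and E was not. G was at 918, 679 and 485 in controls and at 1186, 1672 and 1269 in the Tex15-/- libraries, without overlap between the groups. H lay between 142 and 285 in controls and between 395 and 614 in the Tex15-/- libraries, also without overlap. I lay at 234, 213 and 178 in controls and at 167, 65.2 and 165 in the Tex15-/- libraries, so this longer IAPLTR sequence was lower in each of them.

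The most abundant SINE sequences were of other kinds. J is the most abundant shorter SINE sequence and K the most abundant longer one. L and M, B1 sequences of the shorter and the longer size, and N, a longer B2 sequence, are shown as reads of the rodent SINE families and were chosen after their values were seen.

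J, shorter SINE: AggggtgctAtctgtgattgagggac
K, longer SINE: GcattgtggTtcagtggtagaattctcgcc
L, shorter B1: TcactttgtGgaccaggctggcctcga
M, longer B1: TgtgagtttGtgccagcctgatctatac
N, longer B2: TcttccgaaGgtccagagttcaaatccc

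J, listed as MamSINE1, has 1 perfect match in GRCm38, at chr12:108658638-108658663 on the plus strand, inside the exon of the microRNA gene Mir342, which lies within the gene Evl. It contains the whole 22 nt sequence of the mature microRNA mmu-miR-342-5p. K, listed as ID4_, has no perfect match in the genome and is 1 edit away from the 5′ end of a tRNA-Gly gene. ID elements are SINEs derived from tRNA-related sequence. On the same scale, J ranged from 21.3 to 55.5 over the 6 libraries and K from 291 to 537, while L and M stayed between 1.61 and 10.5. N, a sequence that begins with T like most piRNAs, was at 20.7, 21.8 and 19.8 in controls and at 12.4, 11.7 and 10.9 in the Tex15-/- libraries, with no overlap.

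The libraries differed in depth. Between 11184854 and 83102785 reads of 18 to 32 nt were counted per library, and 1995787 to 23244047 of them were the TE reads of 25 to 30 nt. Control replicate 2 was the deepest and Tex15-/- replicate 2 the shallowest. In Tex15-/- replicate 2 the 25 to 30 nt TE reads made up 17.8% of the 18 to 32 nt reads, against 25.7% to 29.5% in the other 5 libraries. Some values are given below also without that library. No molecular identifiers were used, so the reads are not independent molecules.

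The first comparison asks whether the balance between the 2 sizes differed without TEX15. Over LINE, LTR and SINE sequences as a whole, the ratio of longer to shorter reads was 1.05, 1.04 and 1.03 in controls and 0.982, 0.954 and 1.03 in the Tex15-/- libraries. The sizes were thus nearly equally abundant, and the groups overlapped through Tex15-/- replicate 3. The means were 1.04 ± 0.01 and 0.989 ± 0.039 (SD, n = 3 each), a log2 difference of -0.07 (two-sided exact permutation test, p = 0.2). With 3 libraries against 3, this test cannot give a p below 0.1. Leaving out 1 library at a time moved the log2 difference between -0.10 and -0.04. The overlap depended on the limits. The groups did not overlap with 25 to 26 nt as the shorter class (log2 difference -0.09), with 26 against 28 nt (-0.08) or with at least 2 reads per sequence (-0.12), each at an exact permutation p of 0.1. Counted as distinct sequences, the difference was 0.04 in the other direction, with overlap.

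The 3 classes had different balances in both genotypes. For LINE sequences, longer reads were in excess, with ratios of 1.223, 1.212 and 1.1999 in controls and 1.035, 1.095 and 1.101 in the Tex15-/- libraries. Every Tex15-/- library was below every control. The log2 difference was -0.17 (exact permutation test, p = 0.1, adjusted p = 0.15 over the 3 classes). For LTR sequences the ratio was 0.972, 0.940 and 0.932 in controls and 0.968, 0.878 and 1.00 in the Tex15-/- libraries, a difference of 0.00 on the log2 scale (exact permutation test, p = 1). The LTR groups overlapped. For SINE sequences, shorter reads were in excess, with ratios of 0.707, 0.726 and 0.745 in controls and 0.650, 0.697 and 0.668 in the Tex15-/- libraries. The SINE groups did not overlap, and the log2 difference was -0.11 (exact permutation test, p = 0.1). With the limits widened to 24 and 31 nt the SINE difference was -0.12 (exact permutation test, p = 0.1). Without Tex15-/- replicate 2 the log2 differences were -0.18 for LINE, 0.06 for LTR and -0.14 for SINE. Counted as distinct sequences in place of reads, the LINE difference was -0.01. With at least 2 reads per sequence the SINE difference was -0.03, and the SINE groups overlapped (exact permutation test, p = 0.8).

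Reads of the same lengths that were not annotated as TE RNA served as a background for a shift of the whole library. Their ratio of longer to shorter reads was 0.647, 0.646 and 0.670 in controls and 0.575, 0.610 and 0.684 in the Tex15-/- libraries, and the groups overlapped (exact permutation test, p = 0.5). Divided by that ratio, the log2 difference over all 3 classes was 0.00. Reads with the annotation type genes had a ratio of 0.496 ± 0.009 in controls and 0.459 ± 0.035 in the Tex15-/- libraries (SD, n = 3 each), with overlap. Reads of the type named tegRNA had 0.845, 0.856 and 0.856 in controls and 0.772, 0.701 and 0.811 in the Tex15-/- libraries. They were lower in every Tex15-/- library than in every control, with a log2 difference of -0.17 (exact permutation test, p = 0.1). The other types with enough reads of both sizes overlapped between genotypes, with log2 differences of 0.10 for ncRNA, -0.07 for nrRNA and -0.02 for the type named others. The background is thus a mixture of types with different directions. Whether it measures a shift of the whole library was not tested. The part of this background in the LINE and SINE differences was not tested.

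The composition of the TE reads differed between the genotypes. IAP names, which had a ratio above 1 on average, took 15.5% ± 2.2 of the 25 to 30 nt TE reads in controls and 29.1% ± 3.4 in the Tex15-/- libraries (SD, n = 3 each). SINE names other than ID took 7.72% ± 0.76 in controls and 3.73% ± 0.83 in the Tex15-/- libraries (SD, n = 3 each, exact permutation test, p = 0.1). A ratio was therefore also computed with every TE name held at its share in the controls, over the 598 names with at least 10 shorter reads in each library. Held in this way, the ratio of the 3 classes together was 1.05, 1.04 and 1.04 in controls and 0.910, 0.904 and 0.957 in the Tex15-/- libraries. The groups no longer overlapped, and the log2 difference was -0.17 (exact permutation test, p = 0.1). The LTR ratio held at the controls' composition was 0.962, 0.936 and 0.955 in controls and 0.869, 0.780 and 0.884 in the Tex15-/- libraries, a log2 difference of -0.17 where the plain LTR ratio gave 0.00. For LINE and SINE the held differences were -0.18 and -0.17. With the ratio of every name fixed instead at its control mean, the composition of each library gave log2 differences of 0.10 over all classes and 0.15 for LTR. These values used the names as deposited, which were not the same in every library, and were not repeated with 1 name for each sequence. Without the IAP names the LTR ratio was 0.878 ± 0.012 in controls and 0.826 ± 0.074 in the Tex15-/- libraries (SD, n = 3 each, exact permutation test, p = 0.2), with overlap.

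The TE names behind the classes were described in 19 groups. In 10 of them the ratio was lower in every Tex15-/- library than in every control, in 9 the groups overlapped, and in none was it higher. Among all 729 single TE names tested, the ratio was lower in this way for 24.8% and higher for 3.29%, so the lower direction was common across names.

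Among L1 elements, L1Md_A, a young type that still holds copies able to move, had a ratio of 0.958, 1.01 and 1.05 in controls and 0.866, 0.804 and 0.880 in the Tex15-/- libraries. All 3 Tex15-/- values lay below the controls. L1Md_T, the most abundant L1 name, had 1.24, 1.11 and 1.08 in controls and 1.00, 1.13 and 1.03 in the Tex15-/- libraries, and the groups overlapped. The 3 L1Md_F names together had 1.451, 1.495 and 1.455 in controls and 1.14, 1.31 and 1.42 in the Tex15-/- libraries, without overlap. The L1_Mus names were at 1.52 ± 0.03 in controls and 1.35 ± 0.04 in the Tex15-/- libraries (SD, n = 3 each), also without overlap. The other 3 L1 groups overlapped. L1VL names were at 2.03 ± 0.46 and 1.385 ± 0.17 and Lx names at 0.972 ± 0.084 and 0.959 ± 0.103 (SD, n = 3 each). L1Md_Gf was at 0.596, 1.16 and 0.739 in controls and at 0.865, 1.39 and 0.406 in the Tex15-/- libraries.

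Among LTR elements, IAP names had 1.128, 1.084 and 1.09996 in controls and 1.08, 0.967 and 1.14 in the Tex15-/- libraries. The highest and the lowest value both came from Tex15-/- libraries. ETn and MusD names, retroviral elements that are active in mice, had 1.31, 1.28 and 1.25 in controls and 1.17 in all 3 Tex15-/- libraries, without overlap. ERV1 names had 1.02 ± 0.02 and 0.894 ± 0.113, and the MaLR names, remnants of old LTR elements, 0.693 ± 0.020 and 0.603 ± 0.085 (SD, n = 3 each). Neither pair of groups overlapped. ERVL names, with 0.905 ± 0.020 and 0.880 ± 0.078, did overlap.

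The B1 and B2 families, SINEs that are copied by the L1 machinery, had an excess of shorter reads. B1 had 0.755, 0.762 and 0.788 in controls and 0.625, 0.652 and 0.619 in the Tex15-/- libraries. The ratio of B2 and B3 names was 0.761, 0.766 and 0.763 in controls and 0.645, 0.724 and 0.646 in the Tex15-/- libraries. Neither family overlapped between the genotypes. B4 names were at 0.467 ± 0.003 and 0.441 ± 0.043 (SD, n = 3 each), with overlap. ID names stood apart, with 2.61, 3.41 and 3.84 in controls and 3.48, 4.59 and 4.54 in the Tex15-/- libraries, so that ID was the only SINE family of the 5 described with more longer than shorter reads. Without ID the SINE ratio was 0.674, 0.679 and 0.691 in controls and 0.578, 0.576 and 0.556 in the Tex15-/- libraries, a log2 difference of -0.26 that is larger than the -0.11 with ID. For MIR names, an old SINE family, the ratio was 0.413 ± 0.015 and 0.350 ± 0.030, without overlap. The exact permutation p was 0.1 for each of the 10 groups without overlap, and the adjusted p over the 19 groups was 0.19.

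For single names, the change of the ratio was tested by edgeR's quasi-likelihood test of the interaction of size and genotype, with Benjamini-Hochberg adjustment over the 729 TE names that passed a filter on low counts. The ratio of 0 names (0% of those tested) changed at an adjusted p under 0.01. An unadjusted p under 0.05 was found for 131 names, 119 of them with a lower ratio and 12 with a higher one in the Tex15-/- libraries. Over all 729 names, 536 (73.5%) had a log2 change below 0, and the median was -0.18. The median was -0.14 over 130 LINE names, -0.18 over 563 LTR names and -0.21 over 36 SINE names, and with TMM scaling of each column it was -0.09 over all names. Groups without overlap and with lower Tex15-/- values were found for 21 of the 130 LINE names (16.2%), 138 of the 563 LTR names (24.5%) and 22 of the 36 SINE names (61.1%). DESeq2 at the same threshold called 4 of the 729 names, all lower in the Tex15-/- libraries, where edgeR called 0. When each distinct sequence was counted once, edgeR called 51 of 705 names tested, also all lower.

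The 12 most abundant names of the 3 classes had ratios between 0.804 and 1.65 in single libraries. IAPEz-int had 1.255, 1.197 and 1.253 in controls and 1.16, 1.03 and 1.24 in the Tex15-/- libraries, with overlap, and its log2 change in edgeR was -0.12 with a standard error of 0.08 and an adjusted p of 0.462. L1Md_A had the lowest unadjusted p of the 12, at a log2 change of -0.24, a standard error of 0.07 and an adjusted p of 0.207 in edgeR. The groups did not overlap for L1Md_A, RLTR10-int, MMERGLN-int and L1Md_F3, and they overlapped for the other 8 with the deposited names. These 4 of 12 were lower in every Tex15-/- library, against 24.8% of all 729 names tested. The log2 change was below 0 for all 12, from -0.34 for L1Md_F3 to -0.03 for IAPEy-int.

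A wider range was seen in the 114 names that each held more than 0.1% of the reads and together 91.4% of them. Their mean ratio in controls ran from 0.385 for Lx8, an old L1 name, to 5.87 for ID4_, with a median of 0.946. Of the 114, 55 (48.2%) had lower ratios in every Tex15-/- library, against 24.8% of all 729 names tested, and MusHAL1 alone (0.877%) had higher ones, against 3.29%. The other names had fewer reads, and overlap depends on the number of reads too, so these shares do not compare the sizes of the changes. MusHAL1 was at 2.49, 2.45 and 1.97 in controls and at 3.09, 2.85 and 2.88 in the Tex15-/- libraries. The lowest p of all names was that of MLT1G1, an old MaLR name that held under 0.1% of the reads. Its ratio was 0.060, 0.057 and 0.060 in controls and 0.021, 0.013 and 0.017 in the Tex15-/- libraries, and its log2 change was -1.80 (adjusted p = 0.0137 from edgeR). MusHAL1 and MLT1G1 were named after their values were seen.

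The name of a sequence was not the same in every library. Sequences found in at least 2 libraries held 76.2% to 86.1% of the reads of a library, and 39.6% to 46.0% of those reads belonged to a sequence that was given more than 1 TE name across libraries. More than 1 class was given for 2.78% to 3.23%. When each sequence was given 1 name in all libraries, an alternative added after the data were seen, the ratio changed for 10 names (1.37% of those tested), all lower in the Tex15-/- libraries. They were IAPLTR1_Mm, IAPLTR1a_Mm, IAPLTR2b, RLTR13G, RLTR20A4, RLTR44A, RLTR6_Mm and RMER19B among LTR elements, with MLT1G1, and L2c among LINEs. With 1 name per sequence L1Md_F2 had a ratio of 1.66, 1.66 and 1.63 in controls and 1.44, 1.53 and 1.51 in the Tex15-/- libraries, and L1_Mus1 had 1.45, 1.49 and 1.44 against 1.25, 1.18 and 1.31, both without overlap where the deposited names had overlapped. The same held for L1_Mus3, L1Md_F and MMERVK10C-int, so that 9 of the 12 most abundant names were then lower in every Tex15-/- library, against 31% of all 729 names under this naming. Here too overlap depends on the number of reads of a name. L1Md_T, IAPEy-int and IAPEz-int still overlapped, and IAPEz-int had 1.25, 1.19 and 1.24 against 1.16, 1.02 and 1.23. By class, the log2 differences of the ratio were then -0.17 for LINE and -0.11 for SINE.

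Each size was also compared by itself, relative to the typical TE name of that size. Of 723 names tested among shorter reads, 7 (0.968%) rose and 0 fell at an adjusted p under 0.01 by edgeR. Among longer reads 4 of 641 (0.624%) rose and 0 fell. With the deposited names, all were LTR names (1.25% of the LTR names tested in shorter and 0.806% in longer reads), and all 4 were also among the 7. IAPEz-int was 2.31 higher on the log2 scale in shorter reads (adjusted p = 0.0042 from edgeR) and 2.37 higher in longer reads (adjusted p = 0.00609). ETnERV-int, an ETn-type element, was 1.82 and 1.83 higher, IAPLTR1_Mm 2.16 and 1.96, and IAPA_MM-int 3.32 and 3.16. ERVB4_1C-LTR_Mm, MLT1E and RLTR20A4 passed the test in shorter but not in longer reads, and the differences between sizes for these 3 names were not past the threshold in the interaction test with the deposited names. With 1 name per sequence RLTR20A4 did pass it. In the fits of each size with 1 name per sequence, 10 names (1.38%) rose in shorter and 10 (1.56%) in longer reads. ERVB4_1C-LTR_Mm and MLT1E were then among both, RLTR20A4 was in neither, and the LINE name L1_Mm was among the shorter calls. These LTR names other than IAPEz-int, and L1_Mm and B1_Mus1, were named after their values were seen. The log2 changes of L1Md_T were 0.97 and 1.01 (adjusted p = 0.0795 and 0.0317 from edgeR), relative to the typical name. As a share of the 25 to 30 nt TE reads, L1Md_T held 11.8% ± 0.7 in controls and 12.6% ± 1.4 in the Tex15-/- libraries (SD, n = 3 each, exact permutation test, p = 0.4), with overlap. The log2 changes of B1_Mus1 were -0.46 and -0.55 (adjusted p = 0.0957 and 0.152 from edgeR). Without TMM factors, on the scale of all TE reads of a size, 6 of 723 names were higher and 361 lower in shorter reads. In longer reads 5 of 641 were higher and 281 lower. Calls in these fits were lost or gained with single libraries. Without Tex15-/- replicate 2 there were 38 calls among 739 names in shorter and 21 among 656 in longer reads. Without any one of the other 5 libraries there was at most 1 call.

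The base composition separated the sizes in every library. In shorter reads the first base was T in 75.2%, 74.4% and 72.8% of controls' reads and in 74.1%, 76.6% and 73.9% of Tex15-/- reads. In longer reads it was T in 69.5%, 68.8% and 67.1% and in 68.9%, 70.95% and 68.9%. The longer reads were lower in all 6 libraries, with a difference of -5.49 percentage points on average (range -5.77 to -4.96, exact sign-flip permutation test over 6 libraries, p = 0.031, the smallest it can give). The tenth base moved the other way. It was A in 36.1%, 37.8% and 39.3% of shorter reads in controls and in 39.5%, 34.0% and 39.6% in the Tex15-/- libraries, and in 48.7%, 49.6% and 50.5% and in 50.9%, 46.8% and 50.7% of longer reads. Longer reads had 11.8 percentage points more, again in all 6 libraries (exact sign-flip permutation test, p = 0.031). The other base that changed most at position 10 was G, at 27.2% of shorter and 17.6% of longer reads.

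The shift followed the length step by step for the tenth base. In controls A at base 10 was found in 28.1% of reads of 24 nt, 30.6% of 25 nt, 37.5% of 26 nt, 41.1% of 27 nt, 47.8% of 28 nt and 53.2% of 29 nt, and in 47.0% at 30 nt and 45.6% at 31 nt. In Tex15-/- libraries the values ran from 28.1% at 24 nt to 53.3% at 29 nt in the same order. From 25 nt upward T at base 1 was less frequent in longer lengths, from 76.0% at 25 nt to 66.1% at 30 nt and 57.8% at 31 nt in controls, and from 75.7% at 25 nt to 58.4% at 31 nt in the Tex15-/- libraries, where it was highest at 26 nt with 76.8%. At 24 nt it was lower than at 25 nt, with 71.4% in controls and 71.1% in the Tex15-/- libraries. Reads with both T at base 1 and A at base 10 made up 23.6% ± 0.7 of shorter and 28.8% ± 0.3 of longer reads in controls, and 23.98% ± 2.1 and 29.3% ± 1.3 in the Tex15-/- libraries (SD, n = 3 each).

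LINE and LTR sequences had the same pattern, and SINE sequences had the same directions with other sizes. For T at base 1, the difference of longer minus shorter reads was -4.47 percentage points for LINE, -5.46 for LTR and -11.97 for SINE. For A at base 10 it was 11.1 for LINE, 12.2 for LTR and 4.22 for SINE. Each of these differences had the same sign in 6 of 6 libraries (exact sign-flip permutation test, p and adjusted p = 0.031 over the 8 tests). Without the ID family, an alternative added after the data were seen, the SINE differences were -4.12 percentage points at base 1 and 8.51 at base 10, nearer to those of LINE and LTR and again with the same sign in 6 of 6 libraries (exact sign-flip permutation test, p = 0.031 for both). With ID, the SINE difference at base 10 ran from 0.934 to 7.08 percentage points between libraries. With the limits widened to 24 and 31 nt it was 1.67 (exact sign-flip permutation test, p = 0.406), and with at least 2 reads per sequence it was -0.16 (p = 0.906 by the same exact test).

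Between the genotypes the shares over all 3 classes overlapped with all 6 libraries. T at base 1 was at 74.2% ± 1.2 in controls and 74.9% ± 1.5 in the Tex15-/- libraries for shorter reads and at 68.5% ± 1.3 and 69.6% ± 1.2 for longer reads, and A at base 10 was at 37.7% ± 1.6 and 37.7% ± 3.2 and at 49.6% ± 0.9 and 49.5% ± 2.3 (SD, n = 3 each, exact permutation tests, p from 0.4 to 1). Without Tex15-/- replicate 2, A at base 10 was higher in both other Tex15-/- libraries than in every control, by 1.83 percentage points in shorter and 1.19 in longer reads. For LTR reads it was then higher by 2.02 in shorter and 2.69 in longer reads, also without overlap (exact permutation test, p = 0.2 for all 4, the smallest that 2 libraries against 3 can give). Within the classes and with all 6 libraries, 4 of 12 shares did not overlap between genotypes. T at base 1 of longer LINE reads was 68.5%, 67.95% and 65.7% in controls and 68.8%, 71.1% and 69.3% in the Tex15-/- libraries, 2.35 percentage points higher on average. With 1 library left out at a time this LINE difference ran from 1.52 to 2.91. The other 3 were SINE shares, all lower in the Tex15-/- libraries. T at base 1 of longer SINE reads was 70.5%, 68.3% and 67.1% in controls and 66.1%, 61.4% and 61.1% in the Tex15-/- libraries. A at base 10 of longer SINE reads was 37.9%, 38.3% and 39.9% against 34.5%, 30.04% and 31.04%, and that of shorter SINE reads was 30.8%, 32.2% and 34.2% against 30.01%, 29.1% and 30.1%. For all 4, the exact permutation p was 0.1 and the adjusted p over 8 tests was 0.4.

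ID reads had a base composition of their own. Only 12.1% ± 3.1 of the longer ID reads began with T in controls and 6.45% ± 1.63 in the Tex15-/- libraries, and 4.22% ± 0.71 and 1.71% ± 0.58 had A at base 10 (SD, n = 3 each). Of the longer ID reads, 84.1% ± 4.0 in controls and 90.7% ± 1.9 in the Tex15-/- libraries (SD, n = 3 each) came from sequences within 2 edits of the 5′ end of a tRNA gene, and 55.1% ± 1.2 and 67.5% ± 4.7 came from sequence K alone. The comparison covered the 100 most abundant longer ID sequences, which held 87.8% and 93.8% of those reads. The 100 most abundant longer sequences of the other families held less of their reads, 6.45% and 5.49% for B1, 10.3% and 12.2% for B2 and 7.32% and 13.9% for B4. Sequences within 2 edits of a tRNA gene among them held 0.025% and 0.082% of the longer B1 reads and 0% for B2 and B4, and the rest was not compared. Without the ID family, T at base 1 of longer SINE reads was 73.4% ± 0.8 in controls and 74.7% ± 0.6 in the Tex15-/- libraries, so that the difference changed its sign. A at base 10 was 41.6% ± 1.7 and 38.2% ± 1.1 (SD, n = 3 each), still lower without TEX15. Of the longer reads of B1, B2 and B3, B4 and MIR names, 65.7% to 85.5% began with T on average.

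Among the 12 most abundant names, the base composition of longer reads differed most between genotypes for L1Md_A. They began with T in 55.6% ± 1.4 of reads in controls and 64.6% ± 3.3 in the Tex15-/- libraries, and had A at base 10 in 61.2% ± 2.7 and 52.2% ± 3.0 (SD, n = 3 each, exact permutation test, p = 0.1 for both). The groups overlapped in neither. Base shares by name used the deposited names, which differed between libraries for part of the sequences. These shares were not repeated with 1 name per sequence, so the part of the naming in them was not tested. Shorter L1Md_A reads had T at base 1 in 70.4% ± 3.7 and 75.2% ± 2.9 and A at base 10 in 39.8% ± 5.1 and 34.8% ± 3.9, with p of 0.2 and 0.3 in the exact permutation test. In controls the longer L1Md_A reads therefore had the lowest share of T at base 1 of the 12 most abundant names and the highest share of A at base 10. Longer L1Md_T reads had T at base 1 in 63.8% ± 1.4 and 65.8% ± 2.3 and A at base 10 in 54.5% ± 0.1 and 54.1% ± 2.5. IAPEy-int, an IAP name, lay at the other end, with T at base 1 in 80.9% and A at base 10 in 34.2% of longer reads in controls. In IAPEz-int, longer reads had A at base 10 in 56.5% ± 1.6 and 55.6% ± 2.9 and shorter reads in 40.6% ± 2.0 and 41.1% ± 4.0 (SD, n = 3 each).

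The strand of the reads was examined on 1 genomic copy each of L1Md_T and IAPEz-int in GRCm38, with up to 3 mismatches. The L1Md_T copy lies at chrX:117087251-117094750, outside annotated genes and 72147 bp from the nearest protein-coding gene, H2afb1. The IAPEz-int copy lies at chr8:106485251-106492750, also outside genes and 7772 bp from 6030452D12Rik. Between 42.3% and 62.9% of the L1Md_T reads of a size and library and between 82.9% and 84.9% of the IAPEz-int reads were placed on these copies. The sense strand was taken as the one with the longest open reading frame. The reads of an element were taken by the deposited names, which differed between libraries for part of the sequences. Strand shares and overlaps were not repeated with 1 name per sequence, so the part of the naming in their differences was not tested.

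Longer reads were more often antisense than shorter reads of the same element. On L1Md_T, 65.8%, 62.7% and 64.7% of shorter reads were antisense in controls and 61.0%, 57.2% and 58.0% in the Tex15-/- libraries. For longer reads of L1Md_T the values were 73.3%, 74.97% and 73.5% and 71.8%, 64.5% and 67.8%. On average the longer reads were 9.42 percentage points higher (range 7.24 to 12.3 over 6 libraries, exact sign-flip permutation test, p = 0.031). The antisense share of both sizes was lower in every Tex15-/- library than in every control, with differences of -5.63 percentage points for shorter and -5.94 for longer reads (exact permutation test, p = 0.1, adjusted p = 0.2 for both). Counted as distinct sequences, these differences were -1.69 and -2.87 percentage points, with overlap for both sizes (exact permutation test, p = 0.3 and 0.2).

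On IAPEz-int most shorter reads were sense. The antisense share of shorter reads was 34.7%, 35.2% and 39.2% in controls and 48.7%, 29.7% and 42.8% in the Tex15-/- libraries, and that of longer reads was 42.8%, 46.0% and 49.3% and 60.7%, 43.5% and 55.8%. The groups overlapped for both sizes, with Tex15-/- replicate 2 the lowest of the 3 Tex15-/- libraries (exact permutation test, p = 0.6 and 0.3). Without that library the antisense share was 9.37 percentage points higher in shorter and 12.2 higher in longer reads of Tex15-/- libraries than of controls (exact permutation test, p = 0.2, with 2 libraries against 3). Within a library, longer reads exceeded shorter reads by 11.3 percentage points on average (range 8.02 to 13.8, exact sign-flip permutation test, p = 0.031). This gap was 9.66 ± 1.46 in controls and 12.9 ± 0.9 in the Tex15-/- libraries (SD, n = 3 each), without overlap (exact permutation test, p = 0.1). With no mismatch allowed the gap was 2.54 and had this direction in 5 of 6 libraries (exact sign-flip permutation test, p = 0.125).

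Pairs of opposite-strand reads whose 5′ ends overlap by 10 bases, the ping-pong distance, were counted for each combination of sizes among overlaps of 1 to 30 bases. An even spread would put 3.33% at each overlap. On IAPEz-int, the 10-base overlap held 19.5% to 23.8% of pairs of shorter sense with shorter antisense reads over the 6 libraries, 15.1% to 24.4% of shorter sense with longer antisense, 13.6% to 21.7% of longer sense with shorter antisense and 12.3% to 17.98% of longer sense with longer antisense reads. For the last combination the controls (17.1%, 17.98% and 17.6%) lay above the Tex15-/- libraries (12.3%, 16.51% and 13.3%), with an exact permutation p of 0.1 and an adjusted p of 0.4. Counted as distinct sequences they were at 8.80% ± 0.27 and 8.34% ± 0.93 (SD, n = 3 each, exact permutation test, p = 0.4), with overlap. The other 3 combinations overlapped between genotypes.

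On L1Md_T the same overlap held 9.01% to 13.97% of pairs of shorter reads, 12.8% to 18.7% of shorter sense with longer antisense, 7.49% to 12.9% of longer sense with shorter antisense and 10.9% to 35.6% of pairs of longer reads. The value of 35.6% came from control replicate 1 and the other 5 libraries did not exceed 19.2%. The genotypes overlapped for all 4 combinations. In reads, 10 bases was not the most frequent overlap in every library. It led in 6 of 6 libraries for pairs of shorter reads, but in 3 of 6 for longer sense with shorter antisense L1Md_T reads and in 4 of 6 for shorter sense with longer antisense IAPEz-int reads. Counted as distinct sequences it led in all 6 libraries for all 8 combinations, with 6.44% to 10.1% of pairs against 3.69% to 5.05% for the next overlap.

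Many longer reads share their 5′ end with a shorter read, as in the pairs A and B or E and F. The first 25 bases of 70.5%, 80.4% and 71.1% of longer reads in controls and of 77.3%, 74.0% and 78.0% in the Tex15-/- libraries were also the first 25 bases of a shorter sequence of the same library. This share depends on depth, and control replicate 2, the deepest library, had the highest value. When each library was thinned to 1995787 reads the shares were 66.6%, 66.2% and 64.1% in controls and 71.7%, 74.0% and 71.9% in the Tex15-/- libraries, without overlap (exact permutation test, p = 0.1). For shorter reads that share their end with a longer sequence, the thinned shares were 57.7% ± 1.8 and 67.0% ± 1.1 (SD, n = 3 each). Before thinning these were 65.7% ± 5.9 and 70.7% ± 2.2, and with at least 2 reads per sequence 74.8% ± 1.7 and 78.2% ± 3.0. Both overlapped (SD, n = 3 each, exact permutation test, p = 0.4 and 0.3). The thinned share of longer reads was higher by 11.7 percentage points for LTR sequences (60.3% ± 3.1 and 72.0% ± 2.1) and by 1.37 for LINE sequences (73.1% ± 0.3 and 74.5% ± 0.7), both without overlap. Before thinning both classes overlapped, with differences of 5.93 for LTR and -1.78 for LINE, as they did with at least 2 reads per sequence, with 4.92 and -1.71 (exact permutation tests, p from 0.2 to 0.7). SINE sequences were at 38.8% ± 1.2 and 40.5% ± 2.4 (SD, n = 3 each) and overlapped. The share of shorter SINE reads that share their end with a longer sequence was instead lower in the Tex15-/- libraries. It was 25.7% ± 0.2 and 22.1% ± 1.8 when thinned and 35.4% ± 6.7 and 26.3% ± 2.0 before thinning (SD, n = 3 each), without overlap (exact permutation test, p = 0.1 for both). Thinning set the total of the 3 classes and not the reads of each class. Thinned SINE reads numbered 160185, 144872 and 177412 in controls and 72478, 103661 and 68906 in the Tex15-/- libraries. Thinned LTR reads numbered 970613, 912111 and 889873 against 1068083, 1032817 and 1033643. The class shares were thus compared at unequal depths, and the part of these depths in them was not tested. At 1995787 reads a library held 618507, 636814 and 701901 different 5′ ends in controls and 528056, 413308 and 515514 in the Tex15-/- libraries, so the reads of Tex15-/- libraries were spread over fewer ends. The part of this difference, and of the larger IAP share, in the shared ends was not tested.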

How the data were processed

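Small RNA of 6 foetal testes per library was size selected at 15 to 40 nt and made into libraries without molecular identifiers. Per the labels and the study's methods, the authors trimmed adaptors with cutadapt 1.8.1, collapsed identical reads, annotated reads of 18 to 32 nt with Bowtie 1.2.1.1 with up to 3 mismatches against TE sequences from RepeatMasker (GRCm38/mm10) and deposited the raw count of reads of each distinct sequence, with its type, class and name. The authors' normalisation was not used. How 1 name was picked among several equal matches is not given in the sources used here, and a sequence of the 25 to 30 nt TE set was listed once per library, with 1 class. The tables also hold other lengths (4.78% to 8.43% of reads), which were left out of the library totals. Sequences were taken where the type was teRNA and the class LINE, LTR or SINE. The 11184854 to 83102785 reads of 18 to 32 nt per library set the precision of single sequences, while the spread between libraries limited the shares.

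Shares and ratios came from Python 3.11.15 (numpy 2.4.6, pandas 2.3.3, numba 0.67.0), 1 value per library. Genotypes were tested by exact two-sided permutation of the libraries with scipy 1.17.1 and Benjamini-Hochberg adjustment within a family of tests. Differences between the sizes of a library were compared by sign flips over 6 libraries. TE names were fitted in R 4.3.3 with edgeR 4.0.16 (filterByExpr, quasi-likelihood test, adjusted p under 0.01), with 1 library size for both sizes of a library in the test of the ratio and TMM factors in the fits of each size, and with DESeq2 1.42.0 as an alternative. The scripts were tested on simulated counts. Genomic copies were windows of 7500 bp, chosen by the number of positions in them that matched a sequence of the element on either strand. A match took the first 25 bases of a sequence with at least 2 reads in a library. In this search 1 chromosome was left out, and the alternative copy was taken from another chromosome. Sequences were compared with the genome, tRNA genes and microRNAs of the reference given for this work.

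Alternatives were distinct sequences, other length limits, at least 2 reads per sequence, other filters, scalings and thresholds, a second genomic copy, 0 mismatches, thinning, a replicate block and leaving out each library. Added after the data were seen were the held composition, SINE without ID, LTR without IAP, 1 name per sequence, edgeR's newer estimate, DESeq2 at 0.05, and distinct sequences and sign flips for the strands. The TE names described are the 12 with the highest mean share. The sequences are the most abundant of each class and size, the next of LINE and LTR, and the 3 most abundant longer ones that share 25 bases with a shorter one. The next shorter LINE sequence is described by its values only. Other single names were chosen after their values were seen. Members, groups and lists were chosen with earlier results of these data known. The RNA-seq tables of this series were not used here.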

Additional observations from a re-analysis of the deposited data

How the results depend on the processing

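Exact permutation tests of 3 libraries against 3 cannot give a p below 0.1, so for these comparisons between genotypes only directions and sizes are compared here. Counting distinct sequences moved the log2 ratio to 0.036 over all classes, -0.013 for LINE and -0.21 for SINE, and T at base 1 to -1.10 percentage points for all shorter, -0.50 for shorter LINE, -1.08 for shorter LTR, 1.196 for shorter SINE, 1.01 for longer LINE and 2.16 for longer SINE reads. The signs of these turned for the ratio over all classes and for all of the base 1 values except longer LINE. It moved A at base 10 of longer SINE reads to -2.81 and the antisense difference on L1Md_T to -1.69 (shorter) and -2.87 (longer). With at least 2 reads per sequence the log2 ratio was -0.12 over all classes, -0.22 for LINE and -0.027 for SINE, T at base 1 differed by -6.29 in shorter and -13.0 in longer SINE reads, A at base 10 by -10.3 in longer SINE reads, and the SINE difference between sizes at base 10 turned to -0.16. With 25 to 26 nt as the shorter class the ratio was -0.22 for LINE and -0.17 for SINE. With 26 against 28 nt it was -0.19 for SINE, and the longer SINE reads differed by 1.104 (sign turned) at base 1 and by -3.73 at base 10. With 24 to 31 nt these were -10.7 and -9.08, and the SINE difference between sizes at base 10 was 1.67, past no threshold. Dividing by the ratio of reads that are not TE RNA gave 0.0046 over all classes, against -0.07 before. Holding the composition gave -0.17 over all classes, -0.17 for LTR and -0.17 for SINE, leaving out IAP gave -0.092 for LTR, and leaving out ID gave -0.26 for the SINE ratio, 1.31 (sign turned) for T at base 1 and -3.43 for A at base 10 of longer SINE reads. With 0 mismatches the antisense difference was -8.01 for shorter L1Md_T reads, and the IAPEz-int gap between sizes was 2.54. Thinning gave 6.92 percentage points for the shared ends of longer reads. The cause of these changes was not tested beyond what each alternative itself leaves out.

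The count of names called moved more. For the ratio it was 0 by edgeR, 1 at an adjusted p under 0.05, 4 with DESeq2, 10 with DESeq2 at 0.05, 51 with distinct sequences, 10 with 1 name per sequence, and 0 to 1 with a library left out. For shorter reads it was 7, and 23, 53, 78 and 30 in the same order, 367 without TMM factors (6 higher and 361 lower) and 0 to 38 with a library left out. For longer reads it was 4, and 20, 49, 68 and 29, 10 with 1 name per sequence, 286 without TMM factors (5 higher and 281 lower) and 0 to 21 with a library left out. The main fits tested 729 names for the ratio, 723 in shorter and 641 in longer reads. With distinct sequences 705, 705 and 611 names were tested. Without TMM factors the median of all names was -0.85 in shorter and -0.98 in longer reads, so the fits of each size give changes relative to that median. Shared replicate numbers did not pair the libraries (correlations of same-numbered deviations from -0.226 to 0.181). With the replicate number as a block there were 0 calls for the ratio, for shorter and for longer reads. For the class ratios and base shares a block leaves the mean difference as it is, so it could not change a direction. Sign flips over 3 pairs cannot give a p below 0.25. For the log2 ratio this sign-flip p was 0.5 over all classes and 0.25 for LINE and for SINE. Taking only sequences with TE annotations alone, or counting a sequence in each of several classes, could not change a value. Within a library each sequence was listed once with 1 class, so these alternatives test nothing.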
